A study of Mus musculus with 6 samples.

Results

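The expression of 9 genes of glycogen metabolism was examined in C2C12 myoblasts, an established mouse cell line that stands for the precursors of muscle fibres, under induction of an integrin alpha7 construct. The 9 genes are Stbd1, Gyg, Gys1, Gbe1, Gaa, Pygb, Pygl, Pygm and Ppp1r3c, of 18193 genes that the platform annotation pairs with a probe set of their own. Every probe set annotated to exactly 1 of them was taken, 13 in all. Stbd1 was picked because its signal was higher on the arrays labelled induced, and the other genes were picked as its companions in the pathway with earlier results of these arrays in view. The differences between the groups are therefore given for the members as a description, with no p-value.

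Glycogen is the branched glucose store of muscle. Glycogenin primes a new particle, glycogen synthase lengthens its chains and the branching enzyme adds branch points. Phosphorylase releases glucose 1-phosphate in the cytosol, while acid alpha-glucosidase degrades glycogen inside lysosomes. STBD1 holds a carbohydrate-binding domain, sits on membranes of the endoplasmic reticulum and binds both glycogen and the autophagy protein GABARAPL1, so it has been described as a carrier of glycogen to lysosomes.

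Both groups came from a C2C12 line carrying a tetracycline-inducible integrin alpha7 construct, kept undifferentiated for 36 h in DMEM with 20% fetal bovine serum, chick embryo extract, glutamine, penicillin, streptomycin and kanamycin. The arrays labelled induced (3 samples) came from cells given 1 µg/ml tetracycline, and the noninduced arrays (3 samples) from cells without it. No group of a line without the construct was used here, so an effect of tetracycline itself and one of the construct cannot be told apart. The labels do not say whether the line is 1 clone, which promoter drives the construct or which species the integrin came from. Each sample was hybridised to 1 Affymetrix array of the type Mouse430_2 with 45101 probe sets, whose signals are linear and scaled, and the small number of arrays limits the precision. The series calls the samples of a condition biological triplicates.

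Itga7, the target of the construct, did not bear out the labels. Its single probe set (1418393_a_at) gave 675, 727 and 676 on the arrays labelled induced, against 811, 778 and 786 on the noninduced arrays. The groups did not overlap, but the log2 difference of -0.19 was not past the adjusted threshold of 0.05 (limma adjusted p = 0.178). Whether that probe set reads the construct was not tested, so the treated arrays are called labelled induced throughout. All 6 myoblast markers checked were above the signal filter. Their summed signal ranged from 6275 to 6583 on the arrays labelled induced and from 6503 to 6594 on the noninduced arrays. That sum hides differences of opposite sign between the markers, each read by its brightest probe set. On the arrays labelled induced, Myod1 (mean 712, against 805 noninduced) and Chrna1 (2210 against 2411) were lower. Ncam1 was higher there (731 against 625). The groups did not overlap for Myod1, Chrna1 and Ncam1, and they overlapped for Cdh15, Des and Myf5. The summed signal of 8 markers of differentiated muscle ranged from 381 to 438 on the arrays labelled induced and from 352 to 448 on the noninduced arrays. Only 4 of the 8 were above the filter, and this sum too hides opposite signs. Acta1, the brightest, had a higher mean on the arrays labelled induced (192 against 159), with groups that did not overlap. Mylpf, Myog and Tnnc1 had lower means there, with groups that overlapped. No adipocyte or hepatocyte marker passed the filter, where the 3 hepatocyte markers with a probe set summed to 8.03 to 26.1 on the arrays labelled induced and to 28.6 to 34.9 on the noninduced arrays. Of the 16 tested markers of all cell types 0 passed the adjusted threshold in limma. An unadjusted p under 0.05 was reached by 4 of the 16, beside 3305 of all 22518 tested probe sets. By the recorded hybridisation times, arrays labelled induced 2 and 3 came after a gap from the other 4 arrays. The 2 sets of arrays are called the first and second fluidics run here, an inference from that gap, and the recorded times are imperfect. Every array labelled induced was scanned after every noninduced one, so the order of scanning and the treatment cannot be told apart.

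Stbd1 was the single member past the threshold, and it was higher on every array labelled induced. Its probe set, 1434442_at, gave 399, 376 and 423 on arrays labelled induced 1, 2 and 3, against 249, 241 and 275 on noninduced arrays 1, 2 and 3. The groups did not overlap, and the lowest array labelled induced stood 1.37-fold above the highest noninduced array. The group means were 399 ± 23.5 on the arrays labelled induced and 255 ± 17.4 on the noninduced arrays (SD, n = 3 each), a ratio of 1.57. On the log2(signal + 16) scale, which understates the change of dim probe sets, the fold change was 0.62 (SE 0.080, 95% interval 0.44 to 0.79). By this measure Stbd1 ranked in place 5 of the 24 genes with a higher probe set past the threshold. Stbd1 has no other probe set on the array that the annotation gives to it alone, so the value rests on 1 set of probes. The arrays read pooled RNA, so more cells expressing Stbd1 and more Stbd1 RNA per cell cannot be told apart.

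**Figure D1:**
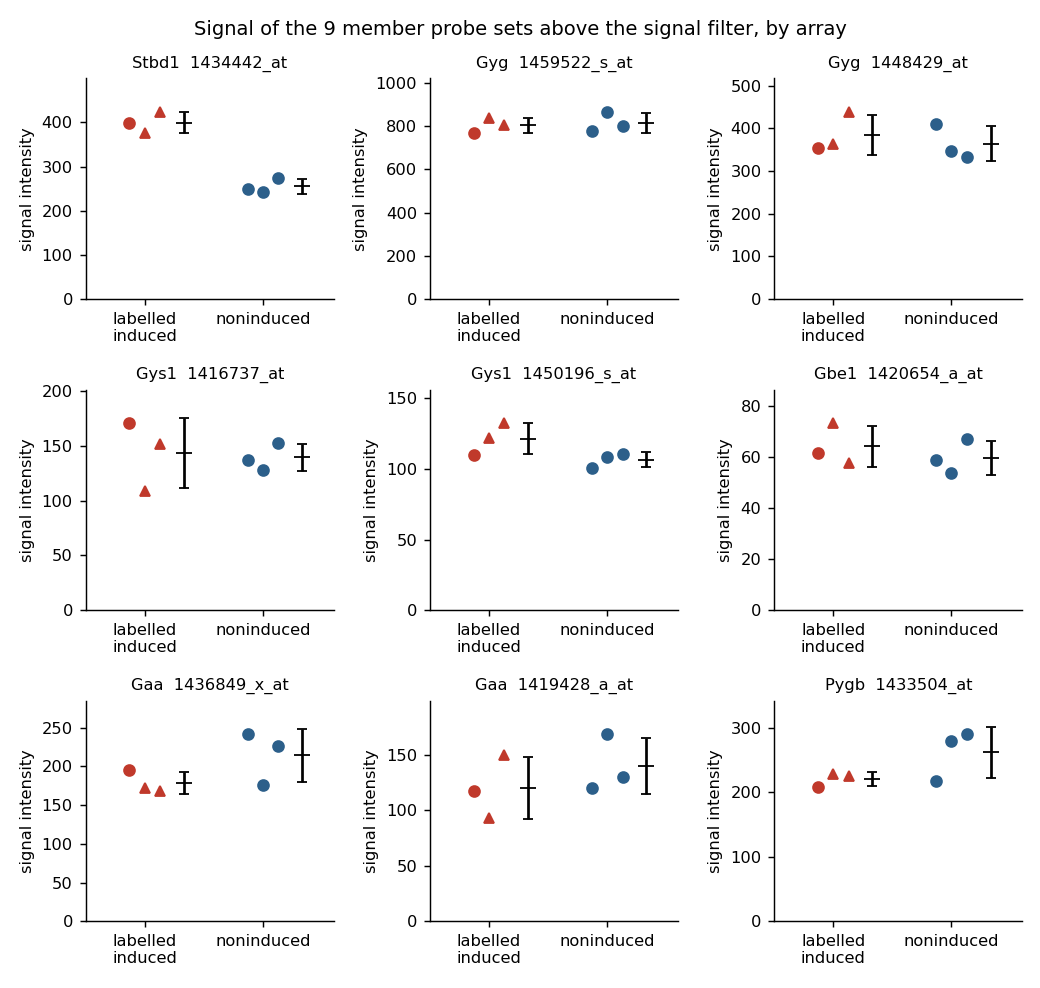
Signal intensity (linear, axis from 0) of each of the 9 member probe sets above the signal filter, with 1 point per array, labelled induced in red and noninduced in blue; circles are arrays of the first fluidics run, triangles those of the second, and the bar is the mean ± SD (n = 3). Stbd1 lies between 376 and 423 on the arrays labelled induced and between 241 and 275 on the noninduced arrays, while the groups overlap for the other 8 probe sets.

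Array labelled induced 1 had a Stbd1 signal of 399, between those of the arrays labelled induced of the second fluidics run, 376 and 423. That array, which shared its fluidics run with the noninduced arrays, gave a log2 fold change of 0.62 by itself, and all 3 together gave 0.62. The second run held no noninduced array. A fit with the run as a block therefore gives the same estimate by design as a fit of the first run alone. From 1 treated array the part of the run in the Stbd1 value cannot be told, and it was not tested. With the run as a block, or within the first run alone, the Stbd1 fold change kept that size but was no longer past the threshold, and there the treated group is that 1 array. Stbd1 was likewise not past the threshold without noninduced array 2 (0.58) or without array labelled induced 1 (0.62), and with the same fold change it missed it when no filter or no variance trend was used. The 3′ to 5′ signal ratio of the Gapdh control probe sets, a measure of RNA integrity, was 0.773 ± 0.011 on the arrays labelled induced and 0.793 ± 0.0077 on the noninduced arrays (SD, n = 3 each). The Actb ratio was 1.13 ± 0.0146 on the arrays labelled induced and 1.103 ± 0.0045 on the noninduced arrays (SD, n = 3 each). The groups did not overlap for either ratio: Gapdh was lower and Actb higher on every array labelled induced. The part of either ratio in the Stbd1 value was not tested.

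**Figure D2:**
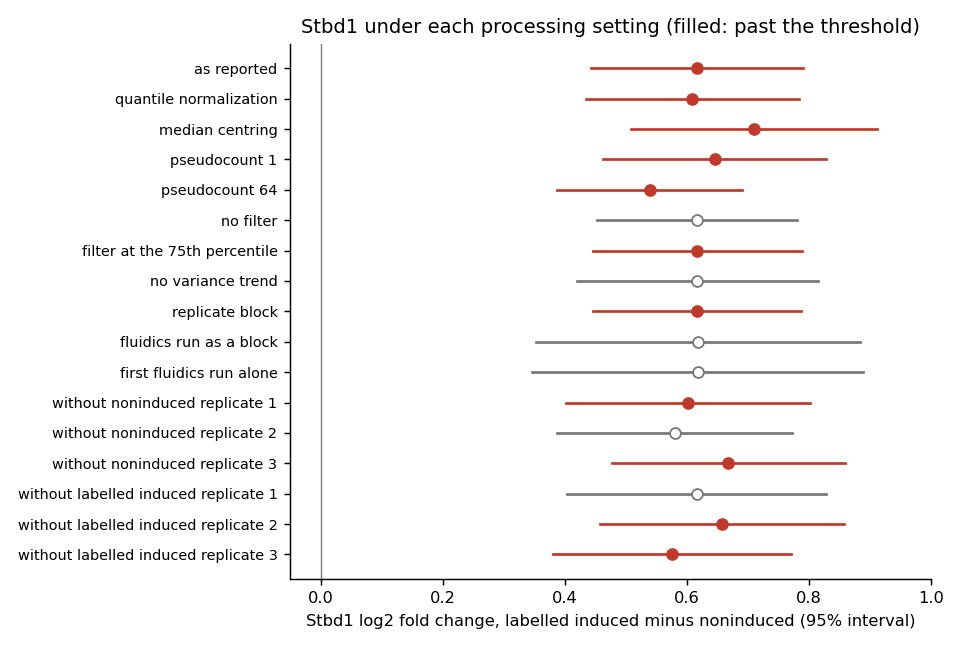
Log2 fold change of Stbd1 (labelled induced minus noninduced, x axis) with its 95% interval under the reported processing and 16 alternatives (y axis); filled red points are past the adjusted threshold and open grey ones are not. The value stays between 0.54 and 0.71, and 10 of the 16 alternatives are past the threshold.

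The promoter windows of Stbd1, Gyg and Gys1 are shown because the first gene was past the threshold and the other pair, which start and lengthen glycogen chains, were not. They run from 250 bases before to 50 bases after the start of the gene, come from RefSeq (assembly GRCm38.p6) and lie at chr5:92602801-92603100, plus strand, for Stbd1, chr3:20155067-20155366, minus strand, for Gyg and chr7:45434589-45434888, plus strand, for Gys1. Capitals mark matches on either strand to ACGTG or GCGTG, the core of the hypoxia response element.
Stbd1: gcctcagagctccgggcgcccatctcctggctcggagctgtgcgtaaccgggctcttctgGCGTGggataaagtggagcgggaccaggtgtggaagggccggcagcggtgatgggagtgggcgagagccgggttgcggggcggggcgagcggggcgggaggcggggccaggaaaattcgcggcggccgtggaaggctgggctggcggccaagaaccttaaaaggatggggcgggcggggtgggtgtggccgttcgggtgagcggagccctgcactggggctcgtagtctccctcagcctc
Gyg: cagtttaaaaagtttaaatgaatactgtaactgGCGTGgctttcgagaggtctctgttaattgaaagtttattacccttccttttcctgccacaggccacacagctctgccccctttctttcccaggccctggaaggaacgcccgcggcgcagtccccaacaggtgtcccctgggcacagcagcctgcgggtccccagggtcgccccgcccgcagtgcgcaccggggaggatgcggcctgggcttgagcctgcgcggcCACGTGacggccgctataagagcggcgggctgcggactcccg
Gys1: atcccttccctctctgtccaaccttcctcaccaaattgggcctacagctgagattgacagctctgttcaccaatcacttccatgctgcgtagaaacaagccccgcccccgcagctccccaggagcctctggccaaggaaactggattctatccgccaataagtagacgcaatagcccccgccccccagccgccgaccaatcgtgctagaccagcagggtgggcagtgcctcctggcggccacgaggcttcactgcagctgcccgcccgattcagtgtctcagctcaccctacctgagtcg
The Stbd1 window is rich in G and C (70.7%, against a median of 52.7% over all 32851 promoter windows). It holds 1 match to GCGTG, whose first base is at position -190 from the start site, no match to ACGTG, and 1 match to the E-box letters CANNTG. The Gyg window holds 1 GCGTG and a CACGTG, which reads as ACGTG on both strands, and the Gys1 window holds neither core.

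All 9 members had 1 promoter window each in the RefSeq table. ACGTG was present in 6 of the 9 (19.6% of all windows hold it) and GCGTG in 6 of the 9 (32.4%). CANNTG was present in 7 (72.3%) and CACGTG in 3 (7.15%), those of Gyg, Gaa and Ppp1r3c. TGATGCAA, the composite element bound by ATF4 with C/EBP proteins, was present in 0 of the 9 and in 0.895% of all windows. Each motif was searched on both strands. The 9 windows held from 54.3% (Gbe1) to 70.7% (Stbd1) G and C, all above the median of 52.7% over all windows. Both hypoxia cores contain CG, and windows of like composition were not compared, so nothing is read from these shares. A match describes the letters of these windows only.

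The genes that build glycogen showed no difference past the threshold. Of the 9 tested member probe sets 1 passed, that of Stbd1, against 0.200% of the 22518 probe sets tested, and since the members were chosen on this contrast nothing is read from the share. The groups did not overlap in 1 of the 9, against 20.3% of all tested probe sets. The 8 other tested probe sets had log2 fold changes from -0.24 to 0.16, and the median of the 9 was 0.02, beside -0.01 over all tested probe sets.

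Gyg encodes glycogenin, the protein that starts each particle by attaching glucose to itself. Its probe set 1459522_s_at gave 768, 835 and 806 on the arrays labelled induced, against 777, 864 and 801 on the noninduced arrays. The noninduced values enclosed those on arrays labelled induced 2 and 3 but not array labelled induced 1, and the log2 difference was -0.02 (SE 0.062, 95% interval -0.15 to 0.12). That interval is the narrowest among the members and lies wholly below the Stbd1 value. The second Gyg probe set, 1448429_at, gave 353, 363 and 438 on the arrays labelled induced, against 411, 347 and 334 on the noninduced arrays, with a single high array in each group. Its log2 fold change was 0.08 (SE 0.099, interval -0.14 to 0.29).

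Gys1 encodes the glycogen synthase of muscle, which lengthens the chains. Probe set 1416737_at gave 171, 109 and 151 on the arrays labelled induced, against 137, 128 and 153 on the noninduced arrays. Arrays labelled induced 1 and 2 were the highest and the lowest of all 6, so the spread within that group (SD 31.7) was far wider than the difference of the means (144 labelled induced, 139 noninduced). The log2 difference was 0.02 (SE 0.142, interval -0.29 to 0.33). It was 0.27 within the first fluidics run and with the run as a block, and ranged from -0.10 without array labelled induced 1 to 0.19 without array labelled induced 2. The other Gys1 probe set, 1450196_s_at, gave 110.1, 122 and 132 on the arrays labelled induced, against 101, 108 and 111 on the noninduced arrays. These groups overlapped only between array labelled induced 1 and noninduced array 3, and the log2 difference was 0.16 (SE 0.109, interval -0.08 to 0.40), not past the threshold. Within the first run and with the run as a block it was 0.04. After median centring, which moved the median of all tested probe sets to 0.08, it was 0.26 (interval 0.0012 to 0.51), still not past the threshold. The 2 Gys1 probe sets thus disagreed on array labelled induced 2, the lowest of all arrays for 1416737_at and above every noninduced array for 1450196_s_at.

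Gbe1, the branching enzyme, gave 61.7, 73.4 and 57.9 on the arrays labelled induced, against 58.8, 53.9 and 67.0 on the noninduced arrays (1420654_a_at). The values of the groups were interleaved, with a log2 fold change of 0.08 (SE 0.144, interval -0.23 to 0.39). Leaving out 1 array gave 0.00, without array labelled induced 2, to 0.15, without noninduced array 3.

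**Figure D3:**
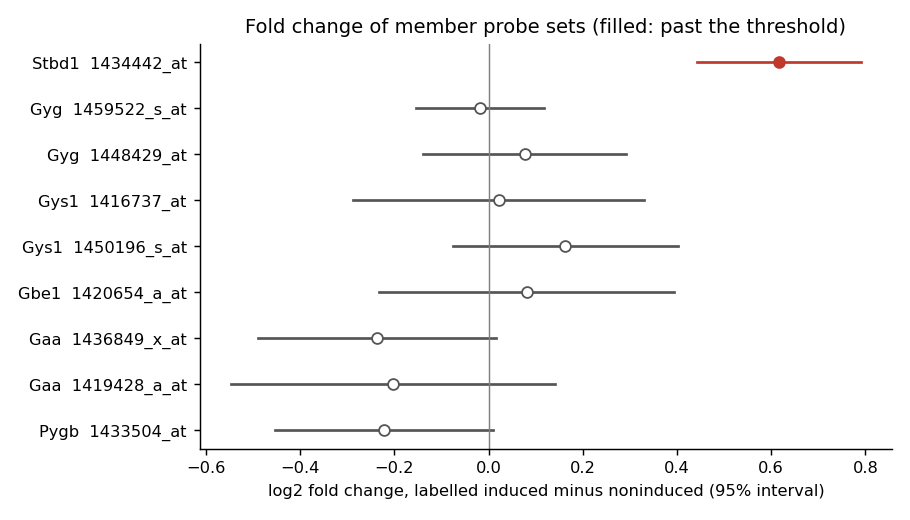
Log2 fold change (labelled induced minus noninduced, x axis) with its 95% interval for the 9 tested member probe sets (y axis); the filled red point is past the adjusted threshold, open points are not. Stbd1 stands at 0.62, and the intervals of the other 8 probe sets all include 0.

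The genes that break glycogen down had lower means on the arrays labelled induced, without passing the threshold. Pygb, the phosphorylase named for brain that is also made in other tissues, gave 209, 229 and 225 on the arrays labelled induced, against 217, 279 and 290.0 on the noninduced arrays (1433504_at). Noninduced array 1 lay within the treated range and noninduced arrays 2 and 3 above it. The log2 difference was -0.22 (SE 0.106, interval -0.45 to 0.01). It was -0.34 (interval -0.54 to -0.14) without noninduced array 1 and -0.15 without noninduced array 3. After median centring it was -0.13, and with the replicate number as a block -0.22 (interval -0.43 to -0.02).

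Gaa encodes the lysosomal enzyme whose loss in people causes Pompe disease. Probe set 1436849_x_at gave 195, 171 and 168 on the arrays labelled induced, against 241, 176 and 226 on the noninduced arrays, with noninduced array 2 inside the treated range. Its log2 fold change was -0.24 (SE 0.116, interval -0.49 to 0.02). It was -0.36 (interval -0.59 to -0.14) without noninduced array 2, -0.15 without noninduced array 1 and -0.11 within the first fluidics run. Probe set 1419428_a_at gave 118, 93.2 and 149 on the arrays labelled induced, against 120.4, 168 and 130.4 on the noninduced arrays, and its log2 fold change was -0.20 (SE 0.158, interval -0.55 to 0.14). That value was -0.07 without noninduced array 2, -0.05 without array labelled induced 2 and -0.35 (interval -0.69 to -0.02) without array labelled induced 3. After median centring it was -0.11. Both Gaa probe sets had the same sign, but they ordered the noninduced arrays in opposite ways: array 2 was the highest of the 3 for 1419428_a_at and the lowest for 1436849_x_at. The suffix _x_at marks a set with probes that resemble other transcripts, and _s_at, as in the Gyg and Gys1 sets above, one that may read several transcripts.

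Pygl, Pygm and Ppp1r3c were too dim to be tested. All 4 of their probe sets fell below the filter, which lay at a signal of 22.6, and no single array exceeded 21.3. Pygl, the phosphorylase named for liver, gave 1.13, 11.4 and 5.88 on the arrays labelled induced, against 11.5, 7.54 and 6.96 on the noninduced arrays. Pygm, the phosphorylase of adult muscle, gave 10.8, 2.48 and 3.10 on the arrays labelled induced, against 7.38, 5.76 and 3.81 on the noninduced arrays. Detection calls were not used here, so these values have no known order and do not show that a transcript was missing.

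Ppp1r3c encodes PTG, which brings protein phosphatase 1 to glycogen. Its probe set 1425631_at gave 20.5, 2.51 and 19.8 on the arrays labelled induced, against 2.31, 21.3 and 1.04 on the noninduced arrays, so the 3 higher values were spread over both groups. The other Ppp1r3c probe set, 1433691_at, stayed at or below 5.34 on every array.

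Of the wider pathway, a list of 46 other genes of glycogen metabolism was followed through 1 probe set per gene, the brightest tested one. Of the 46 genes, 31 were tested, 1 rose, 0 fell and 30 did not pass in limma, against 0.307% called of the 10757 genes tested in that way. Like the members, the list was chosen with earlier results of these arrays known. Nothing is read from its share, and the p-values of its genes are a description. At an unadjusted p under 0.05 in limma there were 3 higher and 3 lower of the 31, beside 3305 of all 22518 tested probe sets in either direction. The median log2 fold change of the 31 was -0.01, with 14 positive and 17 negative, beside -0.01 over all 10757 genes. Centring the arrays on their medians moved the list's median to 0.08, and that of all tested probe sets to 0.08 as well. Over all 64 tested probe sets of these genes 1 passed as well. The groups did not overlap in 10 of the 31 genes by their brightest probe set. Over all tested probe sets, dimmer ones included, the share was 20.3%. A share of genes by their brightest probe set was not computed, so these are not compared. Gys2, the second synthase gene, was below the filter.

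The gene that rose was Slc2a1, which encodes the glucose transporter GLUT1. Its brightest probe set averaged 1343 ± 11.7 on the arrays labelled induced and 1021 ± 18.4 on the noninduced arrays (SD, n = 3 each), with a log2 fold change of 0.39 (SE 0.049) and an adjusted p of 0.0145 in limma, higher on 3 of 3 treated arrays. Its other probe sets gave 0.28 and 0.21 and did not pass, and the call was lost with no filter, with no variance trend, with either fit on the fluidics run, with the replicate number as a block and when noninduced array 2 or 3, or array labelled induced 1 or 2, was left out. Hk2, a hexokinase that traps glucose as glucose 6-phosphate, was at 0.36 (limma adjusted p = 0.117), with groups that did not overlap. It passed once arrays were centred on their medians (0.46, limma adjusted p = 0.0355).

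Enzymes between glucose 6-phosphate and the synthase gave no call. Pgm1, a phosphoglucomutase, was at 0.10 with groups that did not overlap. Ugp2, which makes UDP-glucose, was at 0.06 with its brightest probe set. Its other 4 probe sets ranged from -0.04 to 0.24, and the highest of them, 1434486_x_at, had groups that did not overlap (limma adjusted p = 0.117). Gsk3a and Gsk3b, the kinases that inhibit glycogen synthase, were at -0.12 and 0.10, and the Gsk3b groups did not overlap. None of these 4 genes passed.

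Regulators of phosphorylase and of the synthase phosphatase gave no call. Ppp1cb, a catalytic subunit of protein phosphatase 1, was at 0.25 (limma adjusted p = 0.195), and its other 3 probe sets gave 0.22 to 0.42 without passing. Ppp1r3f, the single glycogen-targeting subunit above the filter, was at 0.04. The remaining targeting subunits on the list, Ppp1r3a, Ppp1r3b, Ppp1r3d, Ppp1r3e and Ppp1r3g, were below the filter, as was Ppp1r3c among the members. Phka1 and Phkg2, the muscle alpha subunit and a catalytic subunit of phosphorylase kinase, were at -0.22 and -0.09. The Phka1 groups did not overlap, but its other probe sets, at -0.02 and -0.23, had groups that overlapped. Of the AMP-activated kinase, whose beta subunits bind glycogen, Prkab1 was at -0.24 (limma adjusted p = 0.258) and Prkaa2 at -0.22. The Prkab1 groups did not overlap, and its other probe set, with groups that overlapped, was at -0.44 without passing.

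Gabarapl1, the autophagy partner of STBD1, and its relatives gave no call. Gabarapl1 averaged 458 ± 33.2 on the arrays labelled induced and 517 ± 38.1 on the noninduced arrays (SD, n = 3 each), and the log2 difference of -0.17 (SE 0.077) had an adjusted p of 0.332 in limma. Its other probe set was at -0.01. Gabarapl2, a close relative, was at -0.17 (limma adjusted p = 0.242) with groups that did not overlap. Lamp2, a protein of the lysosomal membrane, was at 0.11 with its brightest probe set, whose groups overlapped. Its other 3 probe sets gave 0.17 to 0.30, higher on 3 of 3 treated arrays with groups that did not overlap (limma adjusted p = 0.107 to 0.229). Among the genes that handle free glucose 6-phosphate, G6pc3 was at -0.07 and its transporter Slc37a4 at -0.02. Epm2aip1, which encodes a partner of the glycogen phosphatase laforin, was at 0.11. None of these genes passed.

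**Figure D4:**
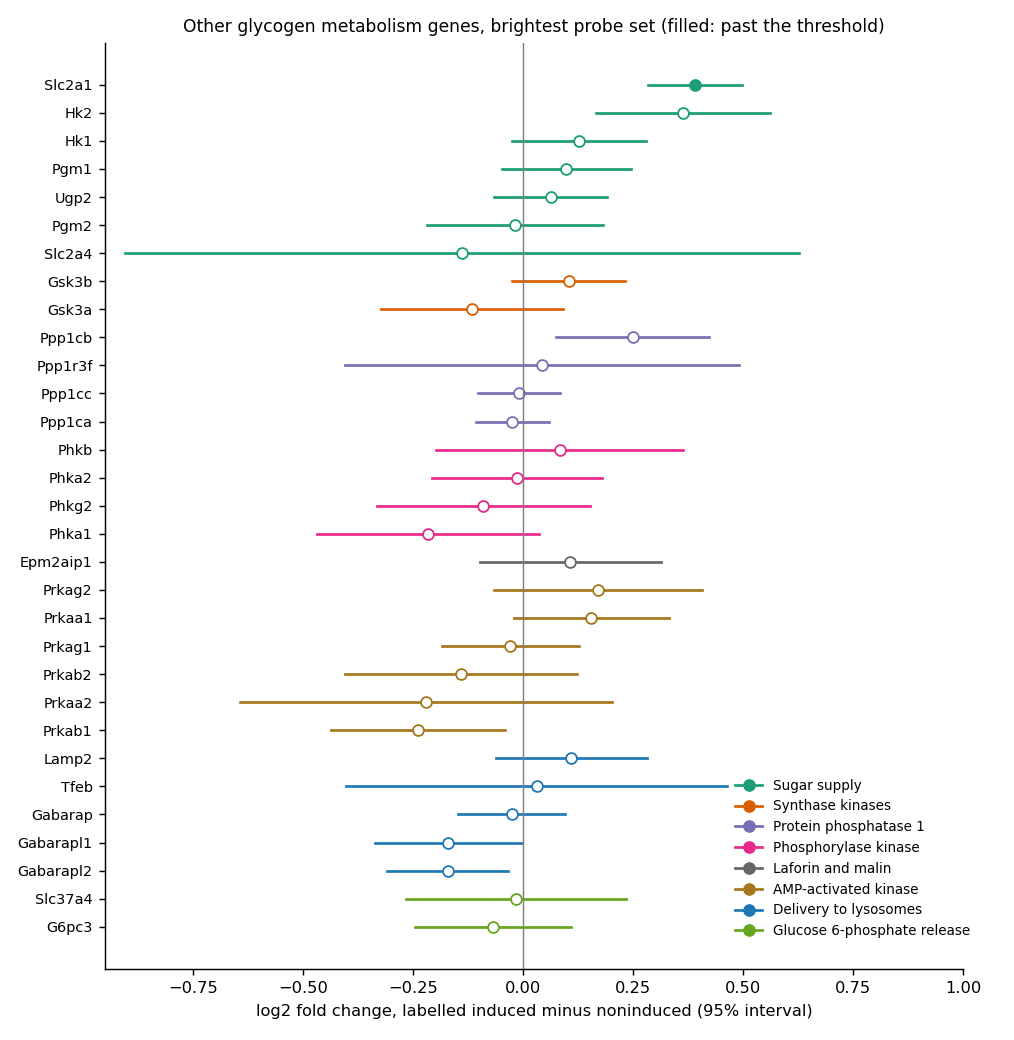
Log2 fold change (labelled induced minus noninduced, x axis) with its 95% interval for the 31 tested genes of the wider list (y axis), each by its brightest tested probe set and coloured by role; the filled point, Slc2a1 at 0.39, is past the adjusted threshold and the open points are not. Hk2 at 0.36 lies next to it and the other 29 genes lie between -0.24 and 0.25.

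The 5 genes whose pattern over the 6 arrays was most like that of Stbd1 were neither members nor on the wider list. Members and list hold few of the probe sets compared, so nothing is read from this. By Pearson correlation of log2 values with Stbd1 over 6 arrays, among 19824 tested probe sets with 1 gene, the 5 closest were Bbx (r = 0.9994), which encodes an HMG-box protein, Zfp280c (0.996), a zinc finger protein, Ubr2 (0.991), a ubiquitin ligase, Nln (0.991), the peptidase neurolysin, and Rab11a (0.990), a GTPase of recycling endosomes. Bbx gave 57.5, 54.4 and 60.8 on the arrays labelled induced, against 35.3, 34.6 and 40.2 on the noninduced arrays. It shared with Stbd1 both the gap between the groups and the order of the arrays within each group. None of the 5 passed the adjusted threshold, with log2 fold changes from 0.16 to 0.48.

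With 6 arrays in 2 groups such correlations are easily high, and 457 probe sets had r above 0.9. The values share arrays and scaling and are a description only. Among the other members the closest to Stbd1 was Gys1 with 1450196_s_at (r = 0.78), and the farthest was Pygb (r = -0.59).

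**Figure D5:**
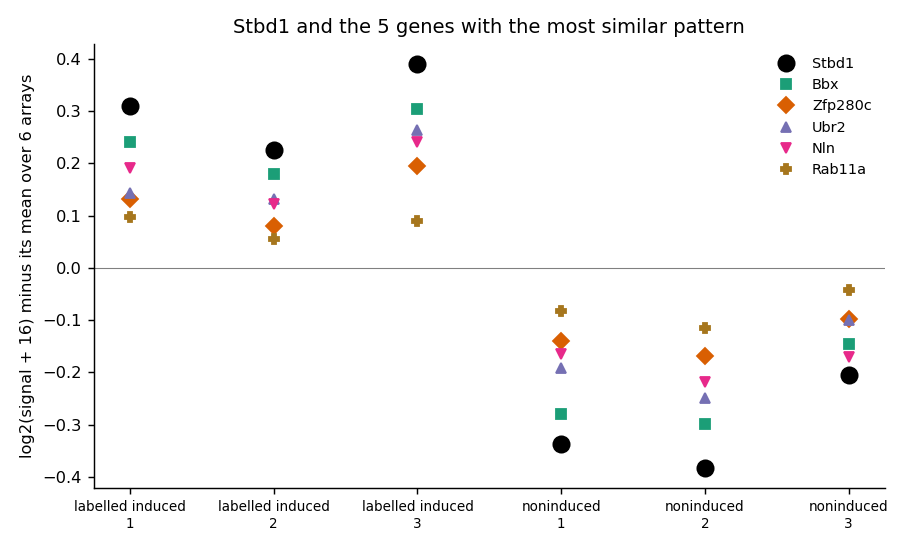
Log2(signal + 16) of Stbd1 (large black circles) and of the 5 genes with the most similar pattern, each minus its own mean over the 6 arrays (y axis), by array (x axis). All 6 genes lie above 0 on the arrays labelled induced and below 0 on the noninduced arrays, and Stbd1 has the widest gap.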

How the data were processed

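Total RNA of 6 samples was biotin-labelled, per the labels' protocols, and hybridised to 1 array each. The authors deposited a linear signal intensity per probe set; the submitters' processing notes name GCOS 1.1.1, and the sources used here give neither signal settings nor a genome build. Every array had a mean of 150.0 after trimming 2% at each end, as read from the values, so signals are relative to the whole array. The deposited instrument records (unit other) gave the chip type and the times of hybridisation and scanning, per the file headers. Fluidics runs were inferred here from a gap between the recorded hybridisation times, and the scan order was read from the scan times. For 1 array the recorded hybridisation time is later than its scan time, so the runs and the order rest on imperfect records.

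The 64 control probe sets were set aside. Values were taken to log2(signal + 16), and the 22518 probe sets whose mean log2 value was above the median (a signal of 22.6) entered limma (version 3.58.1, R version 4.3.3), with moderated variances that follow a trend with signal, Benjamini-Hochberg adjustment over all of them and a threshold of 0.05. Gene names came from the platform annotation. The steps were also run on simulated arrays whose noise followed a smooth trend with signal. That run cannot show how well the trend holds for these data, and nothing is concluded from it. Alternatives were quantile normalization, median centring, other pseudocounts and filters, no variance trend, the replicate number or fluidics run as a block, the first run alone, and leaving out each array.

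The members and lists were chosen with earlier results of these data known. The genes named are all members, Itga7, any gene of the wider list past the threshold and, in each role, the 2 with the largest change, and the 5 most like Stbd1; further genes and probe sets of the wider list were named after their values were seen, and its remaining genes enter the counts only or are not reported here.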

Additional observations from a re-analysis of the deposited data

How the results depend on the processing

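Stbd1 was positive under all 16 alternatives, from 0.54 to 0.71, and past the threshold in 10. The first run alone and the run as a block give the same estimate by design, so they are not separate checks. It missed the threshold, at 0.62, with no filter, without a variance trend, within the first run and with the fluidics run blocked; there 0 members passed, and leaving out 1 array gave 0.58 to 0.67 with 0 or 1 member past it. The probe sets past the threshold numbered 45 in limma (3305 at an unadjusted p under 0.05). They became 306 after median centring (294 higher, against 27 of 45), 73 with a pseudocount of 64, 103 with a filter at the 75th percentile and 1 with no filter. They were 0 without a variance trend (2818 unadjusted), within the first run (1978) and with the run blocked (1918), and 1 to 58 without 1 array. Deviations of same-numbered samples from their group means had correlations of 0.013, -0.062 and -0.0053 over the tested probe sets. Those of differently numbered samples ran from -0.045 to 0.048. Such values cannot show whether samples of a number shared a culture or a day. With that number as a replicate block 7 passed, Stbd1 among them at 0.62. On the wider list 2 genes passed after median centring, 0 with no filter, without a trend, with the replicate block, within the first run and with the run blocked, and 0 to 1 without 1 array. No other member passed under any alternative.

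Signs changed for members near 0. Gyg 1459522_s_at was at 0.075 after median centring and ranged from -0.051 to 0.025 without 1 array, positive without noninduced array 2 and without array labelled induced 1. Gyg 1448429_at was at -0.036 within the first run and with the run blocked, and ranged from -0.017, without array labelled induced 3, to 0.16. Gys1 1416737_at ranged from -0.10 to 0.19 without 1 array, negative without noninduced array 2 and without array labelled induced 1 or 3, and was at 0.27 within the first run and with the run blocked. The cause was not tested.

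The wider list's median changed sign under 6 alternatives, from -0.01 to between 0.01 and 0.08, where the median of all tested probe sets after centring was also 0.08. Signals near or below the filter limit what can be said of Pygl, Pygm and Ppp1r3c.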
